A study of Arabidopsis thaliana with 12 samples.

Results

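AUR1, HTR12 and POLA3 are 3 cell division genes of Arabidopsis thaliana, chosen by their measured levels over the 4 harvest times of these arrays, with a DNA replication gene set against a pair of mitosis genes. They were found by symbol in the platform's probe-to-gene table. Each gene had 1 probe set, and these 3 were among 13513 probe sets that named 1 gene and 22746 non-control probe sets in all. AUR1 (AT4G32830, chromosome 4) encodes an Aurora kinase. HTR12 (AT1G01370, chromosome 1) encodes the centromeric histone H3, also called CENH3. POLA3 (AT5G41880, chromosome 5) encodes a subunit of DNA primase.

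Total RNA came from the aerial part of wild type seedlings of the Columbia ecotype, 10 days old, and was labelled with biotin for 12 Affymetrix arrays, 1 sample an array. The plants had grown on agar with Murashige and Skoog salts and 1% sucrose, under a day of 16 h light and 8 h dark that began at 6am. Each of the 4 groups held 3 replicates. The harvest at 6am fell at lights on (0 h), those at 12pm and 6pm fell 6 h and 12 h into the light, and that at 12am fell in the dark, 18 h after lights on. A line overexpressing CCA1 and polysomal RNA, which the series' design and protocol also name, were not analysed here.

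A dividing plant cell copies its DNA in S phase and separates the copies in mitosis. Primase lays down the short RNA primers from which DNA polymerase alpha starts each new DNA strand, so it works in S phase. Aurora kinases phosphorylate histone H3 and act on chromosomes and the spindle in mitosis, and CENH3 replaces ordinary histone H3 in the nucleosomes of the centromere, where the kinetochore forms and spindle fibres attach. In a seedling shoot, dividing cells lie mainly in the shoot meristem and in young leaves, while most leaf tissue no longer divides. The arrays held RNA of the whole aerial part, and in such bulk RNA fewer dividing cells and less RNA per dividing cell cannot be told apart.

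All 3 genes were lower at 6am than at 12pm and 6pm, and they parted at 12am. AUR1 stood about as high in the dark as in the light, HTR12 kept most of its daytime level, and POLA3 was back at its 6am level. The values are the deposited log2 levels, so a difference of 1 is 2-fold. Because the genes were chosen for this timing in these arrays, their levels and differences are a description and carry no test.

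**Figure D1:**
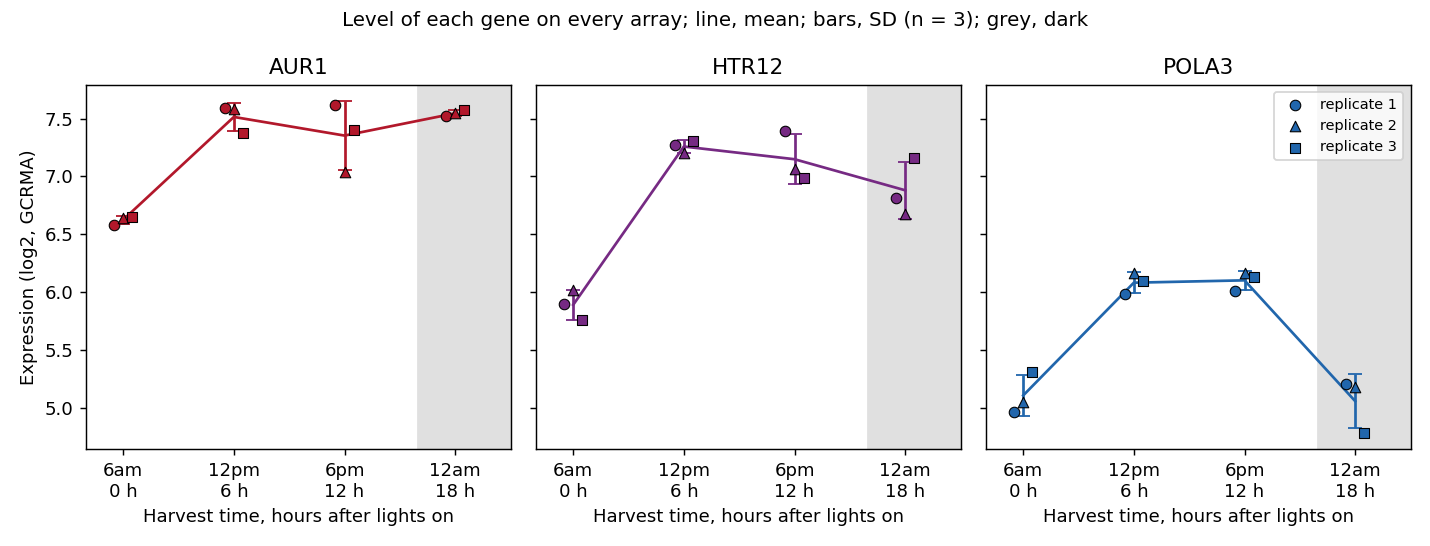
The log2 expression level (vertical axis) of AUR1, HTR12 and POLA3 on each array against harvest time in hours after lights on. Symbols are replicates 1, 2 and 3, lines join the means, bars are the SD of 3 arrays and grey marks the dark. At 12am AUR1 averaged 7.55, HTR12 6.88 and POLA3 5.06, against 6am means of 6.63, 5.89 and 5.11.

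POLA3, the DNA replication gene, was high on the 6 arrays of the light period and low on the other 6. Its log2 levels were 4.97, 5.05 and 5.31 at 6am, 5.98, 6.17 and 6.10 at 12pm, 6.01, 6.17 and 6.13 at 6pm, and 5.21, 5.18 and 4.79 at 12am. The lowest array of 12pm and 6pm lay above the highest array of 6am and 12am, so the light and the dawn and midnight levels did not overlap. The means were 5.11 ± 0.18, 6.08 ± 0.09, 6.10 ± 0.08 and 5.06 ± 0.24 in the order of the day (SD, n = 3 each). POLA3 was higher at 12pm than at 6am by 0.97 ± 0.15 (SE of the model), or 1.96-fold, and higher at 6pm than at 6am by 0.99 ± 0.15. Between 6pm and 12am, 6 h apart, its level dropped by 1.04 ± 0.15, or 2.06-fold. Neither 12pm and 6pm (a difference of 0.02) nor 6am and 12am (-0.05) differed beyond the spread of their arrays.

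AUR1, the mitotic kinase gene, was low at 6am alone. It measured 6.58, 6.65 and 6.65 at 6am, 7.59, 7.58 and 7.37 at 12pm, 7.62, 7.04 and 7.40 at 6pm, and 7.52, 7.55 and 7.57 at 12am. Every array of the 3 later times lay above every array of 6am, and the 3 later times overlapped one another. Its means were 6.63 ± 0.04, 7.51 ± 0.12, 7.35 ± 0.29 and 7.55 ± 0.03 in the order of the day (SD, n = 3 each), with the tightest arrays at 12am. Over 6am, AUR1 was higher by 0.89 ± 0.15 (1.85-fold) at 12pm, by 0.73 ± 0.15 (1.65-fold) at 6pm and by 0.92 ± 0.15 (1.89-fold) at 12am. The wide spread at 6pm came from replicate 2 at 7.04, without which the 6pm difference from 6am was 0.88. Midnight was the highest mean, but it exceeded 12pm by 0.03 ± 0.15 and 6pm by 0.19 ± 0.15, both within the spread.

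HTR12, the centromeric histone gene, had the widest range of the 3 genes and an intermediate midnight level. Its levels were 5.90, 6.02 and 5.76 at 6am, 7.27, 7.20 and 7.30 at 12pm, 7.40, 7.06 and 6.99 at 6pm, and 6.81, 6.68 and 7.16 at 12am. The 6am arrays again lay below all others, with means of 5.89 ± 0.13, 7.26 ± 0.05, 7.15 ± 0.22 and 6.88 ± 0.25 in the order of the day (SD, n = 3 each). The difference from 6am was 1.37 ± 0.16 (2.58-fold) at 12pm, 1.26 ± 0.16 (2.39-fold) at 6pm and 0.99 ± 0.16 (1.98-fold) at 12am. Midnight lay below 12pm by a margin that just cleared the spread, with a difference of -0.38 ± 0.16 and a gap of 0.04 between the highest 12am and the lowest 12pm array. Midnight and 6pm overlapped, at a difference of -0.27 ± 0.16.

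**Figure D2:**
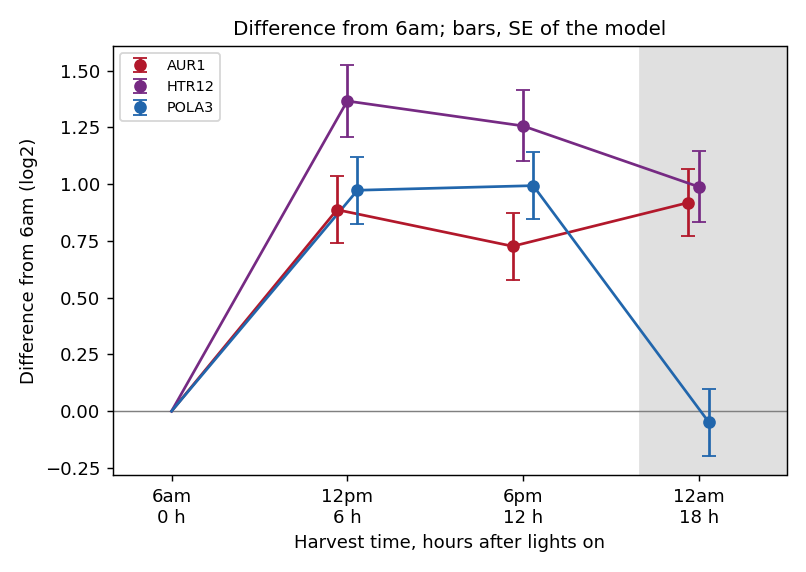
The difference of each gene's mean log2 level from its own 6am mean (vertical axis) against hours after lights on, with bars for the SE of the model (n = 3 arrays a time) and grey for the dark. At 18 h AUR1 lay 0.92 and HTR12 0.99 above 6am, while POLA3 lay at -0.05.

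The contrast can be put as the share of the daytime rise (the mean of 12pm and 6pm minus 6am) that was left at 12am. That share was 114% for AUR1, 75.4% for HTR12 and -4.98% for POLA3. Leaving out any 1 of the 12 arrays gave 104 to 124% for AUR1, 64.9 to 83.2% for HTR12 and -13.2 to 8.84% for POLA3, so the 3 ranges did not meet. The share was defined after the values had been seen and describes these 3 genes only.

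Daily differences were common on these arrays, which sets the background for any single gene. Of 14185 tested probe sets, 46.8% differed over the 4 times by limma's F-test at an adjusted p below 0.05. All 3 arrays of 12pm lay above all 3 of 6am for 23.9% of tested probe sets, and AUR1, HTR12 and POLA3 belonged to these. They also belonged to the 22.6% for which 6pm cleared 6am. AUR1 and HTR12 were among the 20.8% that cleared 6am at 12am, POLA3 was among the 18.2% whose 12am arrays all lay below 6pm, and POLA3 and HTR12 were among the 22.2% whose 12am arrays all lay below 12pm. The lowest mean fell at 6am for 29.9% of tested probe sets, as it did for AUR1 and HTR12. Since the timing itself chose the genes, nothing is read from these shares.

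Replicate 1 stood apart from replicates 2 and 3 within each time, with correlations over probe sets of 0.967 to 0.984 against 0.986 to 0.997 between replicates 2 and 3. The actin control's 3' probe set exceeded its 5' probe set by 5.08 to 6.49 in replicate 1 and by 4.38 to 5.09 in the others, a measure of how complete the RNA was. For the GAPDH control the excess was 2.02 to 2.33 in replicate 1 and 1.77 to 2.19 in the others, ranges that overlapped. Replicates 2 and 3 alone left 130% of the daytime rise for AUR1, 82.2% for HTR12 and -20.5% for POLA3 at 12am. The genes were chosen on arrays that include these, so the values are a description and no independent check. Of the shoot meristem markers only CLV3, a stem cell signal, was on a probe set naming 1 gene, and it was at the table's lowest value, 2.10, on every array. The root hair gene EXPA7 was also at 2.10 throughout, while PYK10, a root-enriched glucosidase, reached 12.1. All 5 mature leaf markers on such probe sets were high, with means between 13.03 and 14.61, but their courses differed. LHCB4.2 and RCA, of light harvesting and Rubisco activation, averaged 14.02, 14.27, 13.21 and 13.03, and 13.61, 13.46, 13.05 and 13.42 in the order of the day. SBPASE, of the Calvin cycle, was highest at 12am (13.61), and these 3 passed limma's F-test, while LHCB4.1 and PRK did not (adjusted p of 0.107 and 0.688). No defining marker gave the amount of meristem RNA, and its part in the results was not tested.

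The gene lists below were chosen with earlier results of these data known, so a count above its share is no independent support. A list of 68 DNA replication genes, POLA3 included, was matched by locus. Only 9 lay on a probe set naming 1 gene, and 7 of these passed the filter of a log2 of at least 4 on at least 3 arrays. Besides POLA3, 4 of 6 tested genes differed over the 4 times by the F-test (46.8% of all tested), and 5 of 6 had their highest mean at 6pm (23.7% of all tested). Their median difference was 0.71 for 6pm over 6am and 0.13 for 12am over 6am, and -0.57 for 12am against 6pm, while the medians over all tested probe sets lay between -0.02 and 0.02. AT1G07270 and AT5G26680, the other 2 genes, did not pass the filter.

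MCM7 (AT4G02060, listed as PRL), a subunit of the helicase that unwinds DNA at the fork, had a course like that of POLA3. It measured 8.40, 7.47 and 7.49 at 6am, 8.32, 8.39 and 8.54 at 12pm, 8.66, 8.46 and 8.74 at 6pm, and 7.75, 7.77 and 7.79 at 12am. All midnight arrays lay below all daytime arrays, and of the 6am arrays only replicate 1 stood at the daytime level. By limma, MCM7 fell at 12am against 6pm by 0.85 ± 0.22 (1.80-fold, adjusted p = 0.0162), where 9.97% of all tested probe sets were lower. That call was lost without 6pm replicate 3, at an adjusted p of 0.0594. Its difference from 6am was 0.83 ± 0.22 at 6pm (adjusted p = 0.0115) and 0.63 ± 0.22 at 12pm (adjusted p = 0.0413), and the 12pm call was lost in 11 of 21 alternatives, with a highest adjusted p of 0.154. The arrays whose loss ended it were 6am replicates 2 and 3, every 12pm replicate, 6pm replicates 1 and 3, and 12am replicates 2 and 3. The 6pm call was lost without 6am replicate 2 or 3, with a highest adjusted p of 0.0613.

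AT3G42660, entered in the list as CTF4, was likewise high at 12pm and 6pm and low at 12am. It averaged 7.29 ± 0.09 at 6am, 7.85 ± 0.12 at 12pm, 7.99 ± 0.13 at 6pm and 7.36 ± 0.04 at 12am (SD, n = 3 each). It rose by 0.56 ± 0.12 at 12pm (limma adjusted p = 0.00415, with 17.3% of tested probe sets higher) and by 0.70 ± 0.12 at 6pm (adjusted p = 0.000952, with 16.7% higher), both over 6am. Midnight fell below 6pm by 0.64 ± 0.12 (adjusted p = 0.00309) and below 12pm by 0.49 ± 0.12 (adjusted p = 0.0101, with 14.2% lower). None of these calls was lost in 21 alternatives each. PSF2, a subunit of the GINS complex of the replicative helicase, rose at 6pm over 6am by 0.69 ± 0.17 (limma adjusted p = 0.00753), and at 12am it lay below 6pm by 0.51 ± 0.17 (adjusted p = 0.0533).

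ICU2, the catalytic subunit of DNA polymerase alpha and so the direct partner of primase, had no call in the fit without a replicate block. It measured 6.05, 5.05 and 5.12 at 6am, 6.74, 5.86 and 6.12 at 12pm, 7.00, 5.57 and 6.53 at 6pm, and 6.15, 5.48 and 5.17 at 12am, with replicate 1 highest at every time. Its means were 5.41, 6.24, 6.37 and 5.60 in the order of the day, lowest at 6am and highest at 6pm. Its adjusted p was 0.149 by limma's F-test. Within each replicate number its 6am level was the lowest, and its 12am level lay below those of 12pm and 6pm. With the replicate number as a block, 5 of 6 replication genes passed the F-test, and calls over all probe sets rose too. POLD3, a subunit of DNA polymerase delta, had means of 6.96, 6.74, 7.28 and 6.97 and an adjusted p of 0.234.

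TOPII, the type II DNA topoisomerase that untangles DNA copies in replication and in mitosis, was still high at 12am. It measured 9.00, 7.97 and 8.09 at 6am, 9.35, 9.73 and 9.58 at 12pm, 9.17, 9.14 and 8.91 at 6pm, and 9.30, 9.23 and 8.94 at 12am. Only replicate 1 of 6am reached into the range of the later arrays. By limma it rose at 12pm over 6am by 1.20 ± 0.24 (2.29-fold, adjusted p = 0.00253), and its midnight level was above 6am by 0.80 ± 0.24 (adjusted p = 0.0309, with 12.5% of tested probe sets higher). The midnight call was lost in 6 of 21 alternatives, among them leaving out 6am replicate 2 or 3 and 12am replicate 1 or 2, with a highest adjusted p of 0.117.

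**Figure D3:**
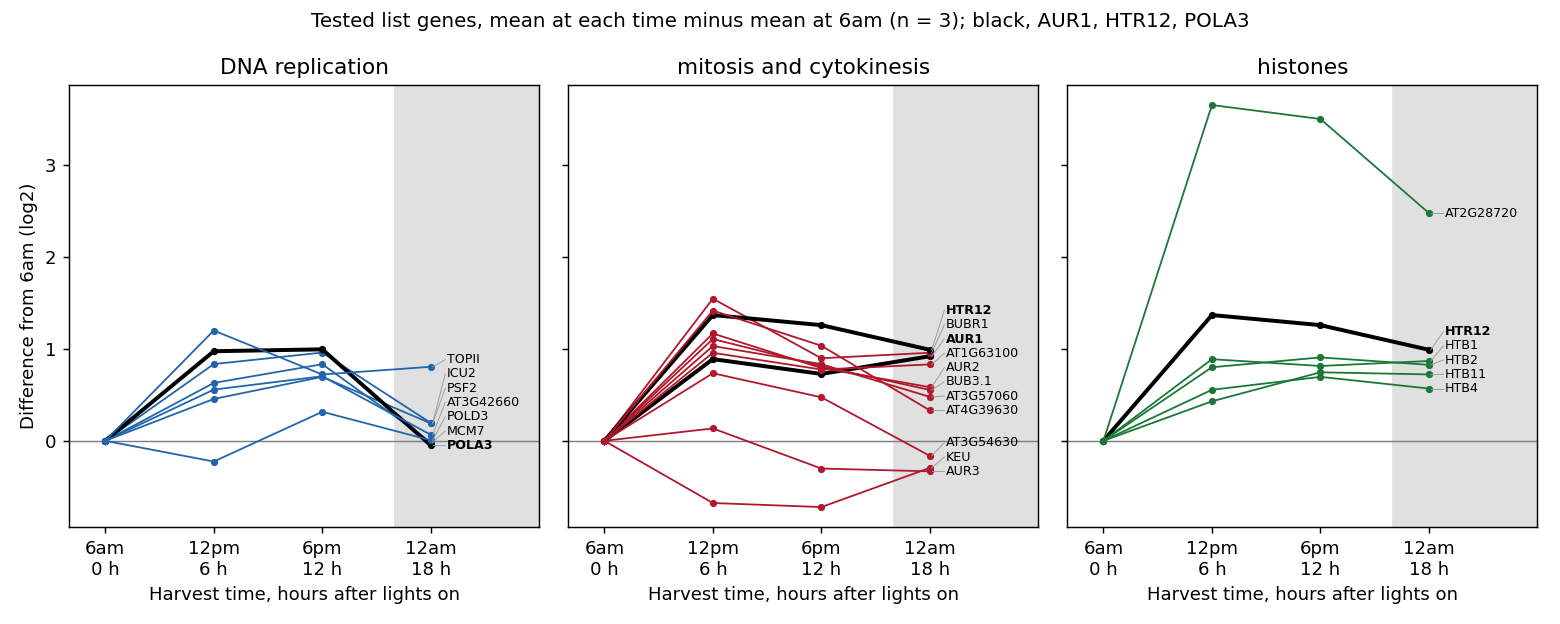
The difference of each tested list gene's mean log2 level from its 6am mean (vertical axis, n = 3 arrays a time) against hours after lights on, for DNA replication, mitosis and cytokinesis, and histone genes. AUR1, HTR12 and POLA3 are in black and grey marks the dark. POLA3 and 5 replication genes end below 0.2 at 12am, while TOPII ends at 0.80.

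The list of mitosis and cytokinesis genes held 71 loci, AUR1 and HTR12 included. Of these, 14 lay on a probe set naming 1 gene and 11 were tested. Besides AUR1 and HTR12, 7 of 9 tested genes passed the F-test (46.8% of all tested). Their highest mean fell at 12pm for 8 of 9, against 24.3% of all tested probe sets, and 6 of 9 were lowest at 6am, against 29.9% of all tested probe sets. Median differences were 1.03 for 12pm over 6am, 0.79 for 6pm over 6am, 0.48 for 12am over 6am and -0.21 for 12am against 6pm. Higher at 12pm than at 6am by the test were 6 of 9 (17.3% of all tested), and KEU was lower. At 12am, 3 of 9 were higher than at 6am (12.5% of all tested), and 1 of 9 without 6am replicate 3 or without 12am replicate 2. Counted in either direction, 5 of 9 were called with the replicate number as a block and 7 of 9 with replicates 2 and 3 alone. Calls over all probe sets also rose under both settings.

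AUR2, the closest relative of AUR1 among the Aurora genes, was also low at 6am and had its highest mean at 12pm. It measured 7.39, 7.63 and 7.31 at 6am, 8.20, 8.78 and 8.84 at 12pm, 8.09, 8.41 and 8.19 at 6pm, and 7.80, 8.39 and 7.88 at 12am. All later arrays lay above all 6am arrays, and neighbouring later times overlapped. By limma AUR2 rose at 12pm over 6am by 1.17 ± 0.21 (2.24-fold, adjusted p = 0.00119) and at 6pm by 0.79 ± 0.21 (adjusted p = 0.0123), and at 12am it lay above 6am by 0.58 ± 0.21 (adjusted p = 0.0631). At 12am AUR1 had 114% of its daytime rise left, against 59.6% for AUR2, and the difference between these shares was not tested. AUR3, the more distant Aurora gene, falls outside the rule for named genes and was looked at for its kinship. Its means were 6.65, 6.79, 6.35 and 6.32 in the order of the day (limma F-test, adjusted p = 0.617).

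The spindle checkpoint genes BUBR1 and BUB3.1, whose proteins hold back chromosome separation until kinetochores are attached, were lowest at 6am and highest at 12pm. BUBR1 averaged 5.04 ± 0.22, 6.58 ± 0.40, 5.93 ± 0.29 and 5.99 ± 0.46 in the order of the day (SD, n = 3 each). It rose at 12pm over 6am by 1.54 ± 0.26, or 2.92-fold (limma adjusted p = 0.000858), and at 12am by 0.96 ± 0.26 (adjusted p = 0.0211). BUB3.1 averaged 8.54 ± 0.19, 9.64 ± 0.19, 9.35 ± 0.05 and 9.09 ± 0.14 (SD, n = 3 each). It rose at 12pm over 6am by 1.11 ± 0.14 (adjusted p = 0.00014), rose at 12am over 6am by 0.55 ± 0.14 (adjusted p = 0.0164), and fell at 12am against 12pm by 0.55 ± 0.14 (adjusted p = 0.0134). The 12am over 6am call was lost without 6am replicate 3 or 12am replicate 2 for both genes, without 6am replicate 1 for BUBR1 and without 12am replicate 3 for BUB3.1, with highest adjusted p-values of 0.0945 for BUBR1 and 0.0685 for BUB3.1. The 12am against 12pm call of BUB3.1 was lost without 12pm replicate 3, at an adjusted p of 0.061.

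The remaining mitosis genes split at midnight. AT1G63100, entered as SCL28, measured 8.42, 8.73 and 8.45 at 12am against 7.85, 7.79 and 7.48 at 6am, and kept 95.9% of its daytime rise. By limma it was 0.83 ± 0.16 higher at 12am than at 6am (adjusted p = 0.00278), a call kept in 21 alternatives. AT3G54630, entered as NDC80, measured 5.39, 5.24 and 4.94 at 12am against 5.54, 5.34 and 5.18 at 6am, and its midnight level lay below 12pm by 0.90 ± 0.21 (adjusted p = 0.00793). AT4G39630, entered as BORR, measured 4.52, 4.28 and 4.39 at 12am against 5.05, 5.61 and 5.78 at 12pm, lower by 1.08 ± 0.25 (adjusted p = 0.00707). Both falls were kept in 21 alternatives each. Left at 12am was -27.1% of the daytime rise for AT3G54630 and 27.0% for AT4G39630, which averaged 4.07 at 6am. AT3G57060, entered as CAP-D2, had 6am values of 6.56, 4.81 and 4.87 and no call by the F-test (adjusted p = 0.131). KEU, a Sec1-type protein of vesicle fusion in cytokinesis, ran the other way, with 10.75 ± 0.22 at 6am, 10.07 ± 0.21 at 12pm, 10.03 ± 0.18 at 6pm and 10.46 ± 0.29 at 12am (SD, n = 3 each). By limma KEU fell at 6pm against 6am by 0.72 ± 0.18 (adjusted p = 0.011, with 15.7% of tested probe sets lower).

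POLA3 dropped at 12am against both 12pm and 6pm. Between 12am and 12pm, 3 of 9 other mitosis genes and 2 of 6 other replication genes were lower by limma (14.2% of all tested), with median differences of -0.55 and -0.44. The mitosis count was 5 of 9 without 12pm replicate 1 or 12am replicate 2, and the replication count was 1 of 6 without any 1 of the 12pm, 6pm or 12am arrays. Between 12am and 6pm, 0 of 9 other mitosis genes were called by limma (19.9% of all tested), with 3 of 9 at an unadjusted p below 0.05 (2 lower and 1 higher). Without 6am replicate 1 the call count was 2 of 9, and without 6pm replicate 2 it was 1 of 9. Of the 6 other replication genes, 2 were lower by the test (9.97% of all tested), 3 at an unadjusted p below 0.05, and 1 by the test without 6pm replicate 3. Without 6am replicate 1 the replication count was 3 of 6. With the replicate number as a block, the mitosis and replication counts for 12am against 6pm were 2 of 9 and 4 of 6. For 12am against 12pm the block gave 6 of 9 and 3 of 6, and calls over all probe sets rose too. The medians for 12am against 6pm were -0.21 for mitosis and -0.57 for replication. Whether the lists differ at either pair of times was not tested.

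**Figure D4:**
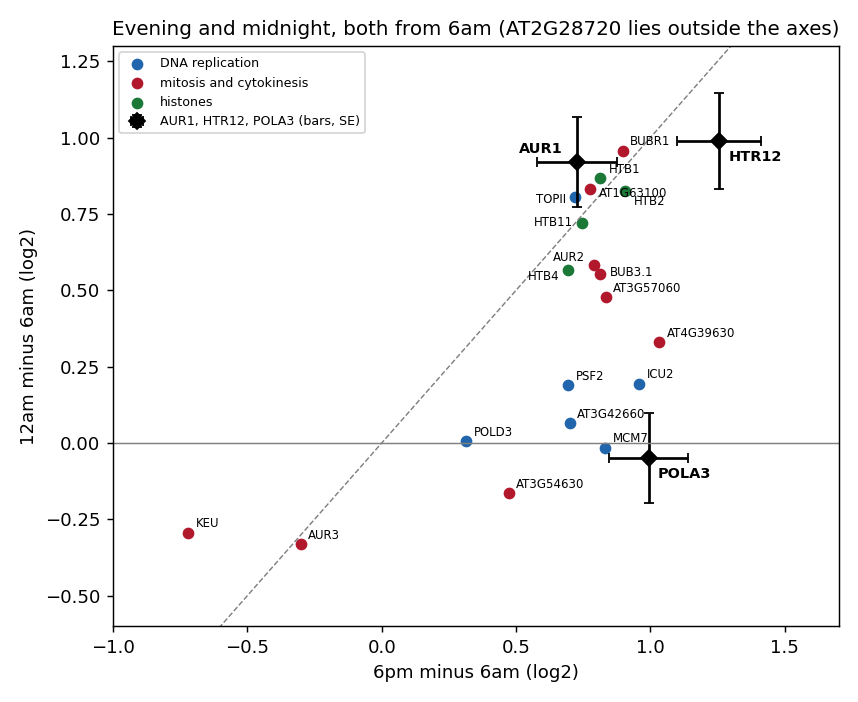
The difference between 6pm and 6am (horizontal axis, log2) and between 12am and 6am (vertical axis, log2) for each tested list gene, with SE bars for AUR1, HTR12 and POLA3. The axes share the 6am arrays, the dashed line marks equal differences, and AT2G28720 (3.50 and 2.47) lies outside. AUR1 lies at 0.73 and 0.92, HTR12 at 1.26 and 0.99, POLA3 at 0.99 and -0.05.

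Histone genes, which supply the proteins that package newly made DNA, were set beside HTR12. Of 35 loci, 6 lay on a probe set naming 1 gene and all 6 were tested. All 5 genes besides HTR12 were lowest at 6am (29.9% of all tested), and 4 of 5 passed the F-test (46.8% of all tested). At 12am, 4 of 5 were above 6am by the test (12.5% of all tested), with a median difference of 0.83. Without 12am replicate 2 or 3 the count was 2 of 5. Not called was HTB1, at 0.87 ± 0.33 (limma adjusted p = 0.0773), though its 12am level lay above its 6am level within each replicate number. With the replicate number as a block, or with replicates 2 and 3 alone, the count was 5 of 5. Calls over all probe sets also rose under both settings.

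HTB2, a histone H2B gene, measured 11.51, 11.77 and 11.85 at 12am against 11.01, 10.88 and 10.77 at 6am. Its midnight level was 0.83 ± 0.15 higher than at 6am by limma (adjusted p = 0.00211) and 96.8% of its daytime rise was left. HTB4 and HTB11, also H2B genes, kept 90.9 and 123% of their daytime rise. Their limma calls for 12am over 6am were lost in 3 and 5 of 21 alternatives, with highest adjusted p-values of 0.0756 and 0.0978. HTB11 was not called for 12pm over 6am (0.43 ± 0.20, limma adjusted p = 0.128). Its F-test call was lost in 5 of 20 alternatives, with a highest adjusted p of 0.091. The widest course belonged to AT2G28720, entered as HTB3, with 5.48, 6.41 and 6.36 at 6am, 9.41, 9.94 and 9.85 at 12pm, 8.85, 10.04 and 9.86 at 6pm, and 8.31, 8.68 and 8.68 at 12am. Every later array lay far above every 6am array. By limma AT2G28720 rose at 12pm over 6am by 3.65 ± 0.32, or 12.5-fold (adjusted p = 8.57e-06), and at 12am over 6am by 2.47 ± 0.32, or 5.55-fold (adjusted p = 0.00024). It fell at 12am against 12pm by 1.17 ± 0.32 (2.26-fold, adjusted p = 0.0182) and against 6pm by 1.02 ± 0.32 (adjusted p = 0.0451). The fall against 12pm was lost without 12pm replicate 2 or 3 or 12am replicate 1, with a highest adjusted p of 0.067. The fall against 6pm was lost in 11 of 21 alternatives, with a highest adjusted p of 0.149, among them the loss of replicate 2 or 3 of any time or of 12am replicate 1. At 12am HTR12 had 75.4% of its daytime rise left, against 69.3% for AT2G28720.

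The list of cell cycle control genes held 50 loci, of which 5 were on a probe set naming 1 gene, and all 5 were tested. SAMBA, a regulator of the anaphase-promoting complex in early growth, was highest at 6am. It measured 9.50, 9.83 and 9.72 at 6am, 9.01, 8.90 and 8.89 at 12pm, 9.09, 9.14 and 9.15 at 6pm, and 9.36, 9.28 and 9.37 at 12am. By limma it fell at 12pm against 6am by 0.75 ± 0.12 (1.68-fold, adjusted p = 0.00051, with 17.1% of tested probe sets lower). SIM, an inhibitor of cyclin-dependent kinases that promotes endoreduplication, exceeded its 12pm level at 12am by 0.59 ± 0.18 (adjusted p = 0.0274, with 13.9% of tested probe sets higher). SIM did not pass the F-test over the 4 times (adjusted p = 0.0546). The SIM call was lost without 12pm replicate 1, 12am replicate 2 or 12am replicate 3, with a highest adjusted p of 0.105. HBT and CDC27a, subunits of the anaphase-promoting complex, and TSO1, a regulator of division in the flower, had no call by the F-test (adjusted p of 0.489, 0.0967 and 0.157).

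The 12-array profiles of AUR1 and HTR12 were more alike than either was to that of POLA3. Pearson's r was 0.88 (Spearman's rho 0.74) between AUR1 and HTR12, 0.63 (0.48) between HTR12 and POLA3 and 0.38 (0.22) between AUR1 and POLA3. These values describe arrays that share harvest times, and the 3 genes were chosen for this pattern. Among 7717 other tested probe sets naming 1 gene, HTR12 ranked 32 in likeness to AUR1, while POLA3 ranked 1792. The ranks were 107 and 2047 with each replicate number's mean subtracted, and 57 and 2227 by Spearman's rho. In likeness to HTR12, AUR1 ranked 166 and POLA3 1003, with 320 and 1279 after that subtraction and 330 and 1422 by Spearman's rho.

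The 5 genes most like AUR1 by Pearson's r were AT2G37470 (0.95), GH9B7 (0.93), AT5G49760 (0.93), AT1G33590 (0.93) and UBC20 (0.93). AT2G37470 averaged 10.68 at 6am, 11.74 at 12pm, 11.73 at 6pm and 11.80 at 12am. The 5 most like HTR12 were AT1G19310 (0.97), Fes1B (0.97), UGT80B1 (0.96), AT3G51450 (0.96) and AT3G07320 (0.96). UGT80B1, a sterol glucosyltransferase, averaged 5.32, 7.53, 7.59 and 6.89 in the order of the day. The 5 most like POLA3 were AT4G09500 (0.97), GI (0.96), AT4G01870 (0.96), AT5G27930 (0.96) and AT1G71695 (0.96). GI, which encodes the clock protein GIGANTEA, averaged 2.10 at 6am, 8.41 at 12pm, 7.40 at 6pm and 2.10 at 12am, where 2.10 is the table's lowest value. With each replicate number's mean subtracted, 3 of the 5 remained nearest for AUR1, 2 of 5 for HTR12 and 2 of 5 for POLA3, and by Spearman's rho 1, 0 and 2 of 5 remained.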

How the data were processed

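The deposited table holds GCRMA log2 levels, and the submitters' processing notes name R 3.1 and affy 1.42.3. Which arrays shared a normalization is not stated there. The lowest value was 2.10, and 29.3% of values lay within 0.1 of it. Control probe sets (64) and 8561 that did not reach a log2 of 4 on 3 of 12 arrays were left out. limma 3.58.1 (R 4.3.3) was fitted to all 14185 remaining with time as a factor, no replicate block, and 8 residual and 3.44 prior degrees of freedom. Tests were two-sided, with Benjamini-Hochberg adjusted p-values over all tested probe sets. The labels do not say whether replicates were separate cultures, and p-values measure no more than the spread between samples, which may be technical. The number of arrays limits precision, and a change in total messenger RNA cannot be read from normalized values.

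Genes were named through the platform's annotation and RefSeq locus tags: 503 probe sets listed several genes and 8730 were not listed. The members and lists were chosen with earlier results of these data known. Named were all measured genes of a list, or the 10 with the widest range of means where there were more, and the 5 most like each member. Lists drawn by keyword from gene synonyms, 4 mitosis and 5 histone genes, added MGH3, HON4 and HIS1-3. A planned promoter motif search was not run, since no promoter sequence was at hand, and no coordinates are printed because the files name no genome build.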

Additional observations from a re-analysis of the deposited data

How the results depend on the processing

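All 18 differences of AUR1, HTR12 and POLA3 stayed within the residual SD of their own value in 378 recomputations. Many of these could not have moved. The filters, the floor, the block and the variance trend leave the means of these genes as they were. Nor could a difference move in a fit to its own 6 arrays or without an array of another time. The 3 differences that changed sign in some were near 0 throughout: AUR1 between 12am and 12pm ran -0.04 to 0.08, POLA3 between 12am and 6am -0.20 to 0.09, and POLA3 between 6pm and 12pm -0.03 to 0.07. The genes' shares of the daytime rise left at 12am, a measure added after seeing the data, ran 104 to 130% for AUR1, 64.9 to 83.2% for HTR12 and -20.5 to 8.84% for POLA3 over 20 alternatives each. Of 64 called tests of list genes, 42 were never lost, 98 of 1328 recomputations lost a call, none reversed, and 118 recomputations of 47 other tests gained one. In all that follows, genes called in a list are counted without the 3 genes. Without the filter on dim probe sets, DNA replication had 0 called for 12am against 6am and 1 for 12am against 12pm, histones 0 for 12am against 12pm and 0 for 12am against 6pm, and cell cycle control 2 for 6pm against 6am, 1 for 12am against 6am and 1 for 12am against 12pm. Quantile normalization gave cell cycle control 2 by the F-test and 2 for 6pm against 6am, median centring 2 by the F-test and 1 for 12am against 6am, and the variance trend 1 for 12am against 6am. A floor at a log2 of 4 gave mitosis 1 for 12am against 6pm. Same-numbered replicates deviated together with correlations of 0.0554 to 0.649, and 10 of 12 arrays correlated best with their own number, a hint from the data and not from the design. With the replicate number as a block, F-test calls over all probe sets rose above the 6639 of the main fit. They also rose with replicates 2 and 3 alone, in both cases beyond the leave-one-out range given below. Higher list counts under either setting came with that general rise. Under the block, DNA replication had 5 called for 12pm against 6am and 4 for 12am against 6pm. The block gave mitosis 5 for 12am against 6am, 1 for 6pm against 12pm, 6 for 12am against 12pm and 2 for 12am against 6pm, and histones 5 for 12pm against 6am, 1 for 6pm against 12pm and 2 for 12am against 12pm. Cell cycle control had 3 by the F-test under the block, 2 for 6pm against 6am, 1 for 12am against 6am and 1 for 12am against 6pm. Replicates 2 and 3 alone gave mitosis 7 for 12am against 6am, 3 for 6pm against 12pm, 6 for 12am against 12pm and 1 for 12am against 6pm, histones 5 for 12pm against 6am, replication 1 for 6pm against 12pm, and cell cycle control 2 each by the F-test and for 12pm, 6pm and 12am against 6am. The 6 arrays of the 2 times alone gave replication 2 for 6pm and 0 for 12am against 6am, mitosis 1 and histones 0 for 12am against 6pm. Of the 5 genes most like each, Spearman's rho kept 1, 0 and 2 for AUR1, HTR12 and POLA3, and within replicate numbers 3, 2 and 2.

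Leaving out 1 array at a time gave 5723 to 7011 probe sets by the F-test. Replication counts ran 3 to 4 by the F-test, 2 to 4 for 12pm, 2 to 5 for 6pm and 0 to 1 for 12am against 6am, 0 to 1 for 6pm against 12pm, and 1 to 2 and 1 to 3 for 12am against 12pm and 6pm. Mitosis counts ran 7 to 8, 6 to 8, 5 to 6, 1 to 4, 0, 2 to 5 and 0 to 2 in the same order, histone counts 3 to 5, 2 to 4, 3 to 5, 2 to 5, 0, 0 to 1 and 0 to 1, and cell cycle control counts 1 to 2, 1 to 2, 1 to 2, 0 to 1, 0, 0 to 3 and 0. The cause of these shifts was not tested.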

Other observations

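Probe sets that list several histone genes fall outside the gene lists, since none can be named for 1 gene, and were chosen after their values were seen. Their calls are therefore a description, and nothing is read from the shares beside them. There were 5 probe sets that each listed the same 5 loci of histone H3.1, the form built into chromatin as DNA is copied. All 5 passed limma's F-test (46.8% of all tested probe sets) and were lowest at 6am (29.9%). They were higher than at 6am by 1.13 to 1.39 at 12pm, by 1.21 to 1.49 at 6pm and by 0.80 to 1.41 at 12am (log2 differences), with 5 of 5 called each time, against 17.3, 16.7 and 12.5% of all tested probe sets. Their difference between 12am and 6pm was -0.54 to -0.08. These probe sets can share RNA of near-identical genes and are not independent of one another. The 3 probe sets that listed the 3 loci of H3.3, the form exchanged outside replication, gave 1 call by the F-test. Their differences from 6am were -0.28 to -0.01 at 12pm, -0.18 to 0.36 at 6pm and -0.16 to 0.55 at 12am. At 12am 1 of 3 was higher than at 6am by limma (adjusted p = 0.0112), and the same probe set was higher than at 12pm by 0.56 (adjusted p = 0.00827).

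Of the histone genes found only by keyword, HON4, a linker histone, averaged 9.51 ± 0.15 at 6am, 9.82 ± 0.10 at 12pm, 9.72 ± 0.17 at 6pm and 10.12 ± 0.17 at 12am (SD, n = 3 each), with an adjusted p of 0.024 by limma's F-test. HIS1-3, another linker histone, averaged 11.39, 11.21, 11.51 and 10.83 in the order of the day (adjusted p = 0.0602). MGH3, an H3 variant of the male germ line, was at the table's lowest value, 2.10, on every array.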
